A study of Zea mays with 6 samples.

Results

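The comparison described here set young maize ears of the line labelled RHW1 overexpression against ears of the line labelled RHW1 knockout, gene by gene. Its members were the genes of the deposited table that passed a filter on low counts, 22947 of 45578. Ears were at an early stage, at most 0.5 cm long, and each genotype gave 2 RNA sequencing libraries: 2 from RHW1 overexpression (line OE#1), 2 from RHW1 knockout (made by CRISPR editing; rhw1-1 in the series text) and 2 from unmodified wild type. The overexpression libraries come from 1 transgenic line, while the sources used here give neither the promoter that drives its transgene nor the inbred background of the plants. Wild type served only to show whether it lay between or outside the modified lines. Nothing in the labels says whether replicates were separate plants, so p-values measure the spread between these libraries, which may be technical.

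The ear of maize forms at the tip of a side shoot that grows from an axillary bud. The leaves of that side shoot become the husk that wraps the ear. The series title puts RHW1 upstream of ZCN4 in a pathway that sets how wide husk leaves grow. ZCN4 belongs to the family of TERMINAL FLOWER1 and FLOWERING LOCUS T, proteins known for holding back or promoting flowering. The comparison sets labelled gain against labelled loss of a regulator, and the place of wild type beside them shows which line lay further from the unmodified plants.

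The total count was 21094445 and 23999698 reads in the overexpression libraries, 23857611 and 22171948 in the knockout libraries, and 23121631 and 22615468 in wild type. Identifiers of the Zm00001d and ENSRNA kinds are not paired with gene names in the sources used here, so RHW1, ZCN4 and markers of ear tissue were not analysed here, and no check of the genotype labels on RHW1 itself was made. Only microRNA genes carry names. Levels are given as CPM, read counts scaled to a common library size with TMM factors and not by gene length, so they compare libraries and not genes. A gene was called when the Benjamini-Hochberg adjusted p of edgeR's quasi-likelihood test was under 0.05.

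The lines differed in many genes, most by small amounts. In overexpression ears, 3225 genes rose (14.1% of those tested) and 2895 fell (12.6%) relative to knockout ears, together 6120 genes or 26.7% of those tested. The median size of the difference among called genes was 1.24-fold, and 90% of them lay under 1.70-fold. A difference of at least 1.5-fold was reached by 564 higher and 467 lower genes, one of at least 2-fold by 209 higher (0.911%) and 154 lower genes (0.671%), 1.58% in all, and one of at least 4-fold by 59 and 43. The median over all tested genes was -0.0032 on the log2 scale after TMM scaling. The count of 6120 fell to between 4404 and 4545 when 1 library of either line was left out, and DESeq2 called 3946.

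**Figure D1:**
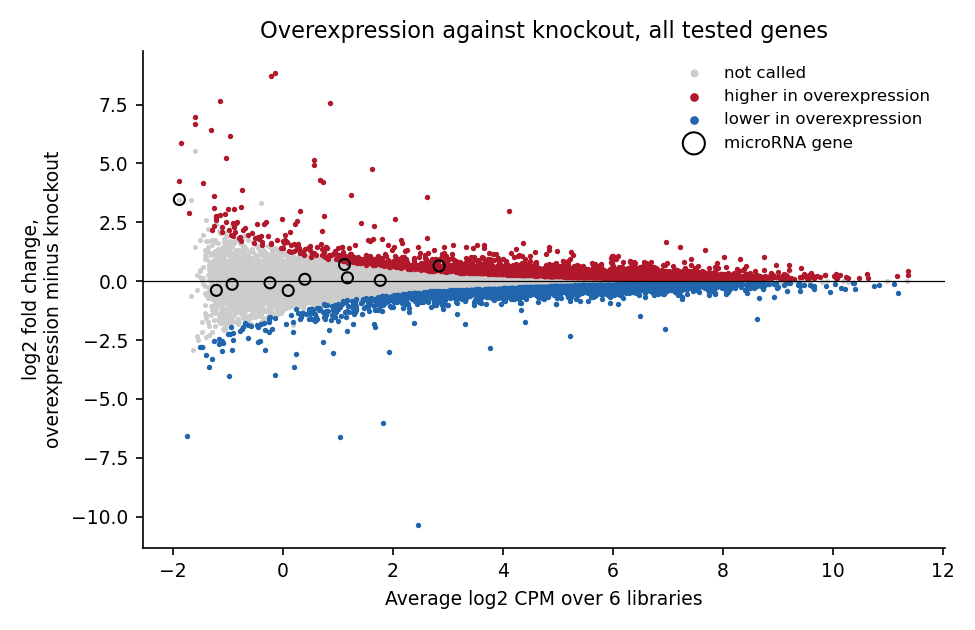
Each point is 1 of the 22947 tested genes, with its average log2 CPM over the 6 libraries on the x axis and its log2 fold change, overexpression minus knockout, on the y axis. Red and blue mark the 3225 higher and 2895 lower genes, grey the genes not called, and open circles the 10 microRNA genes; called differences are smallest where read counts are highest.

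Libraries of different lines were further apart than replicates of a line. The log2 difference between an overexpression and a knockout library had an SD of 0.452 to 0.458 across tested genes over the 4 pairs, against 0.328 between the overexpression replicates and 0.333 between the knockout replicates. A difference of more than 1.5-fold was seen in 11.9% to 12.2% of genes between the lines, against 6.82% between overexpression replicates and 7.01% between knockout replicates. Both overexpression libraries lay above or below both knockout libraries in 61.1% of all tested genes. They did so in 6102 of the 6120 called genes, a count that the call itself nearly fixes.

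The called genes held a visible part of all reads. Genes that rose held 30.1% of reads in each overexpression library, against 25.7% and 25.8% in the knockout libraries and 26.3% and 26.1% in wild type. Genes that fell held 17.1% and 17.0% in overexpression, against 20.6% in each knockout library and 20.4% and 20.5% in wild type. In both sets the wild-type share lay close to that of the knockout. These shares describe genes chosen by the same contrast and test nothing. The genes that differed by 2-fold or more carried few reads: those that rose held 0.349% and 0.345% in overexpression and 0.147% and 0.148% in knockout, and those that fell held 0.0403% and 0.0416% in overexpression and 0.128% and 0.129% in knockout.

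How many genes were called depended on how many reads they had. Tested genes were ranked by mean CPM and split into 4 groups of equal size. The group with the fewest reads (median 1.56 CPM) had 9.88% of its genes called, with a median called difference of 2.06-fold. The group with the most reads (median 90.1 CPM) had 45.9% called, with a median of 1.15-fold. Its called genes were 57.7% higher in overexpression, 1519 against 1113 lower, while the other groups had 46.6% to 50.4% higher. Of the 363 genes with a 2-fold difference, 296 came from the group with the fewest reads and 11 from that with the most. Small differences of genes with few reads were not detectable at this depth.

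**Figure D2:**
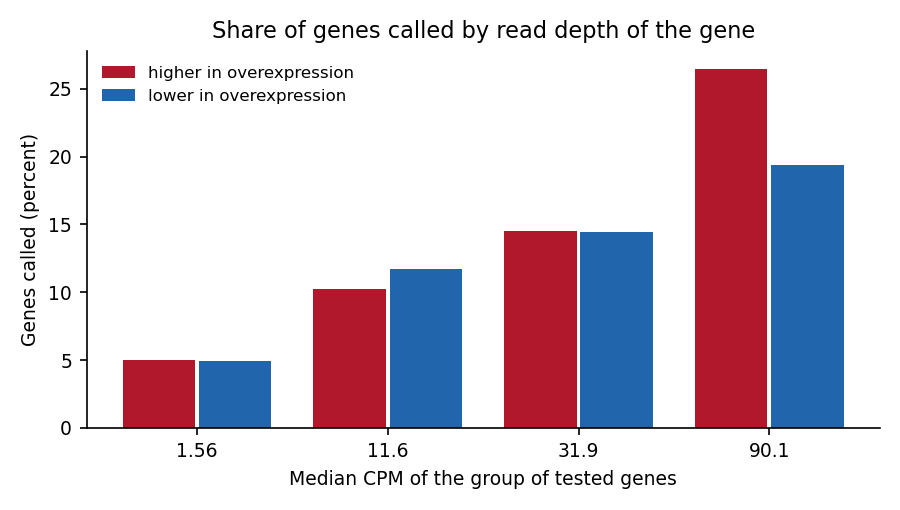
Bars give the percent of genes called higher (red) and lower (blue) in overexpression than in knockout, in 4 equal groups of the tested genes ordered by mean CPM, whose medians stand on the x axis. The share called rises with read depth, and higher calls outnumber lower ones most in the group at 90.1 CPM, 1519 to 1113.

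MicroRNA genes were the only ones whose identity was known. MicroRNAs are short RNAs cut from longer precursor transcripts, and they guide the cleavage or repression of matching messenger RNAs; the reads counted here come from the precursor genes and do not measure the mature RNA. Of 154 microRNA genes in the table, 121 had 0 reads in all 6 libraries, and 10 passed the low-count filter. Of those 10, zma-MIR528a was called, a share of 10%, beside 26.7% of all tested genes. The median log2 fold change of the 10 was 0.0584, against -0.0032 over all tested genes.

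The precursor gene of miR528, a microRNA of grasses and other monocots known for acting on transcripts of copper proteins, was higher in overexpression. Normalised read counts of zma-MIR528a were 10.01 and 11.5 CPM in the overexpression libraries, 6.33 and 7.40 CPM in the knockout libraries, and 3.41 and 3.93 CPM in wild type. The 3 genotypes did not overlap, and wild type lay outside both lines, below the knockout. By edgeR, the lines differed by 0.65 on the log2 scale (SE 0.15, adjusted p = 0.00126), or 1.57-fold. It kept its call in each alternative fit that held both libraries of each line, none of which required a 2-fold difference. Over all 14 alternative fits its log2 fold change ran from 0.54 to 0.766. Its near copy zma-MIR528b, whose reads may be split with it, had 10 and 3 reads in overexpression, 0 and 1 in knockout and 0 and 11 in wild type, too few to give a direction.

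The other copper-related precursor gene showed the same order of genotypes without passing the test between the lines. The counts of zma-MIR408b, whose microRNA is known for acting on laccase and plantacyanin transcripts, were 3.30 and 3.41 CPM in overexpression, 1.87 and 2.24 CPM in knockout, and 0.993 and 0.751 CPM in wild type. No library of one genotype overlapped those of another. The log2 difference between overexpression and knockout was 0.71 (SE 0.29, adjusted p = 0.071, edgeR), and its adjusted p ran between 0.0474 and 0.281 under other settings. Wild type stood below the midpoint of the lines by 1.58 on the log2 scale for zma-MIR408b (adjusted p = 0.000198, edgeR) and by 1.23 for zma-MIR528a (adjusted p = 1.34e-07, edgeR). Knockout minus wild type came to 1.23 on the log2 scale for zma-MIR408b (adjusted p = 0.0194, edgeR). For zma-MIR528a it came to 0.90 (adjusted p = 0.000495, edgeR). In both genes, overexpression and knockout lay on the same side of wild type.

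The remaining tested microRNA genes did not pass, and most had lines that overlapped. The gene zma-MIR159a, of a family that acts on MYB transcription factors, had 58 and 44 reads in overexpression and 42 and 54 in knockout, with a log2 fold change of 0.15 (SE 0.33). The gene zma-MIR160b, whose microRNA targets transcripts of auxin response factors, had 17 and 20 reads in overexpression and 37 and 14 in knockout. Knockout replicates of zma-MIR160b were therefore further apart than the lines, and its relative zma-MIR160d, at 13 and 9 against 8 and 17 reads, overlapped as well. The gene zma-MIR166a, of the family that acts on HD-ZIP III genes of leaf polarity, was nearly level, at 30 and 29 reads in overexpression and 30 and 28 in knockout. The genes zma-MIR168a and zma-MIR168b belong to the family that acts on ARGONAUTE1, the protein that carries microRNAs. The first had 79 and 65 reads in overexpression and 63 and 83 in knockout, and the second 5 and 6 in overexpression and 7 and 8 in knockout. The gene zma-MIR2118c, of a family known in grasses for starting the production of phased small RNAs in flowers, had 18 and 12 reads in overexpression and 20 and 13 in knockout. At these depths a missed threshold does not show that the lines were equal.

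Precursor genes of further families tied to ear and leaf development had too few reads to compare. Summed over its 11 genes, the miR156 family, which acts on SBP-box genes of bract and ear development, had 6 and 6 reads in overexpression and 4 and 2 in knockout. The miR172 family, which acts on APETALA2-type genes of spikelet development, had 1 and 3 reads in overexpression and 1 and 0 in knockout. For miR396, which acts on growth-regulating factors of leaf size, the sums were 0 and 0 in overexpression and 1 and 0 in knockout. For miR319, which acts on TCP genes of leaf shape, they were 2 and 1 in overexpression and 3 and 5 in knockout. The copper-responsive families miR397 and miR398 had 0 reads in every library. A count of 0 allows up to 3 counts per library, for counting error only.

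**Figure D3:**
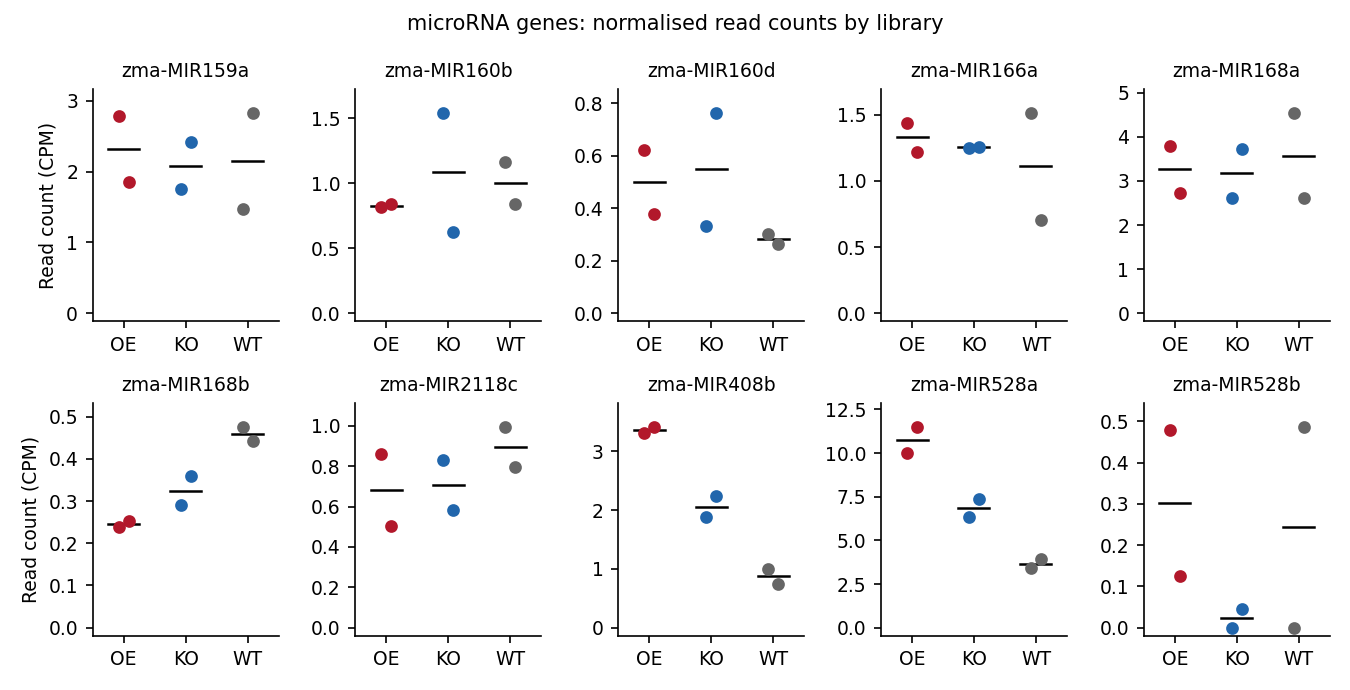
Normalised read counts (CPM) of the 10 tested microRNA genes, with 1 panel a gene and 2 libraries each of overexpression (OE), knockout (KO) and wild type (WT); points are libraries and bars are means of 2. In zma-MIR528a and zma-MIR408b overexpression lies above knockout and knockout above wild type, while zma-MIR159a, zma-MIR160b, zma-MIR160d, zma-MIR166a, zma-MIR168a and zma-MIR2118c overlap between the lines.

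Other non-coding genes without names gave a share of calls near that of genes with few reads. Of 113 tested ENSRNA genes, 11 (9.73%) differed between the lines, 7 higher and 4 lower in overexpression, beside 26.8% of the Zm00001d genes. The difference in these shares was not tested. Most ENSRNA genes in the table, 1522 of 1635, did not pass the low-count filter.

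Under limits on read level and overlap, the largest rise and the largest fall both set overexpression apart from the other 4 libraries. Among called genes whose average log2 CPM was 1 or more and whose lines did not overlap, the 10 largest rises ran from 3.44-fold to 27.2-fold. The largest was Zm00001d032902, with 173 and 201 reads in overexpression, 6 and 8 in knockout and 2 and 19 in wild type. Both overexpression libraries stood far above the other 4, and the wild-type replicates differed widely from each other. Its log2 fold change between the lines was 4.77 (SE 0.39, adjusted p = 2.88e-12, edgeR), and wild type lay nearer the knockout. In 8 of the 10 genes wild type was nearer the knockout, beside 77.4% of all called genes. All 10 also differed between overexpression and wild type, beside 29.2% of all tested genes. Between knockout and wild type 3 differed, beside 8.52% of all tested genes. Choosing the largest differences between the lines itself favours a call against wild type.

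The largest fall was a gene without a single read in overexpression. The counts of Zm00001d029091 were 0 and 0 reads in overexpression, 150 and 183 in knockout and 175 and 230 in wild type. Taking 3 counts per library as the floor, its level was at least 53.5-fold lower in overexpression than in knockout (counting error only). Knockout and wild type did not differ by the test (log2 fold change -0.30, SE 0.18, adjusted p = 0.361, edgeR). It was the only gene with 0 reads in both libraries of one line and at least 50 in each of the other. With a limit of 10 reads, 2 genes were at 0 in overexpression and 5 at 0 in knockout; they are named here because they are few, after their values were seen. The other gene at 0 in overexpression was Zm00001d034118, with 14 and 10 reads in knockout and 5 and 0 in wild type. Those at 0 in knockout were Zm00001d041013 with 61 and 49 reads in overexpression, Zm00001d021040 with 36 and 69, Zm00001d024440 with 17 and 32, Zm00001d026524 with 10 and 21 and Zm00001d020646 with 14 and 11. All 5 had 0 to 5 reads in each wild-type library. In all 10 of the largest falls wild type was nearer the knockout, beside 77.4% of all called genes. All 10 differed between overexpression and wild type, beside 29.2% of all tested genes. Between knockout and wild type 2 differed, beside 8.52% of all tested genes. As for the rises, choosing the largest differences favours a call against wild type.

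Genes with many reads differed less. In the group with the most reads, the 3 largest rises were 2.5-fold to 3.15-fold and the 3 largest falls 2.81-fold to 4.05-fold. Wild type lay between the lines in 2 of these 3 rises and in 2 of these 3 falls. It lay outside them in the largest rise, Zm00001d018482. The largest of these falls was Zm00001d039566, at 49.2 CPM in both overexpression libraries, 195 and 204 CPM in the knockout libraries, and 120 and 119 CPM in wild type. Replicates were close in each genotype, and wild type lay between the lines without overlap. Overexpression minus knockout came to -2.02 on the log2 scale (SE 0.04, adjusted p = 1.15e-29, edgeR). Overexpression minus wild type came to -1.28 (SE 0.05, adjusted p = 8.56e-23, edgeR) and knockout minus wild type to 0.74 (SE 0.04, adjusted p = 2.04e-16, edgeR).

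**Figure D4:**
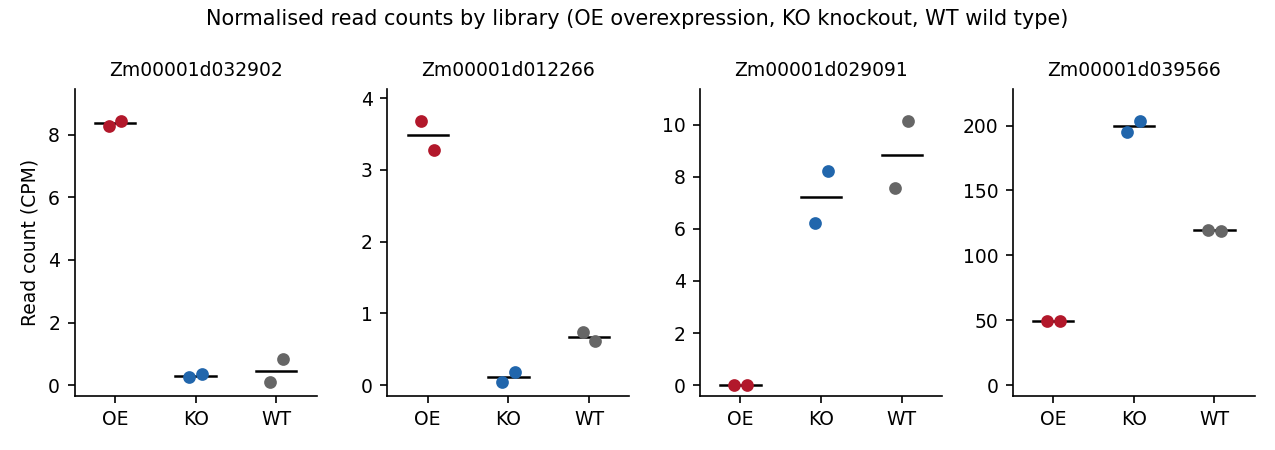
Normalised read counts (CPM) of 4 genes in the overexpression (OE), knockout (KO) and wild-type (WT) libraries; points are libraries and bars are means of 2. Zm00001d032902 is high and Zm00001d029091 at 0 in overexpression, with knockout near wild type, while Zm00001d012266 and Zm00001d039566 have wild type between the lines.

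Wild type lay mostly at the knockout end of the difference. Its place was expressed on a log2 scale that puts the knockout at 0 and overexpression at 1, so that 0.5 is midway, values below 0 lie beyond the knockout and values above 1 lie beyond overexpression. Over the 6120 called genes the median place of wild type was 0.152, with quartiles at -0.159 and 0.462. Wild type was nearer the knockout in 4737 genes (77.4%) and nearer overexpression in 1383 (22.6%). Among the 16827 genes not called it was nearer the knockout in 59.3%. Over the called genes, the median difference was 1.2-fold between overexpression and wild type and 1.07-fold between knockout and wild type. Over the genes not called, these medians were 1.1-fold and 1.08-fold. Wild type was nearer the knockout in 76.9% of the genes that rose and in 77.9% of those that fell. Among genes with a 2-fold difference these shares were 65.6% for rises and 85.1% for falls; the difference between them was not tested.

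The mean of wild type fell between the lines in 3593 called genes (58.7%), beyond the knockout in 2229 (36.4%) and beyond overexpression in 298 (4.87%). Among the genes not called, it fell between them in 28.9%, beyond the knockout in 43.1% and beyond overexpression in 27.9%. The choice of genes with a large gap between the lines itself favours a wild type inside that gap, and that part was not measured. The share with wild type between grew with the size of the difference, at 46.4% below 1.2-fold, 64.3% from 1.2-fold to 1.5-fold, 71.4% from 1.5-fold to 2-fold, 76.6% from 2-fold to 4-fold and 80.4% from 4-fold. The share nearer the knockout stayed between 71.6% and 78.7% over the same classes. By library, both wild-type libraries lay strictly inside the gap in 1733 of the 6102 called genes whose lines did not overlap, beyond both knockout libraries in 1216 and beyond both overexpression libraries in 131.

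**Figure D5:**
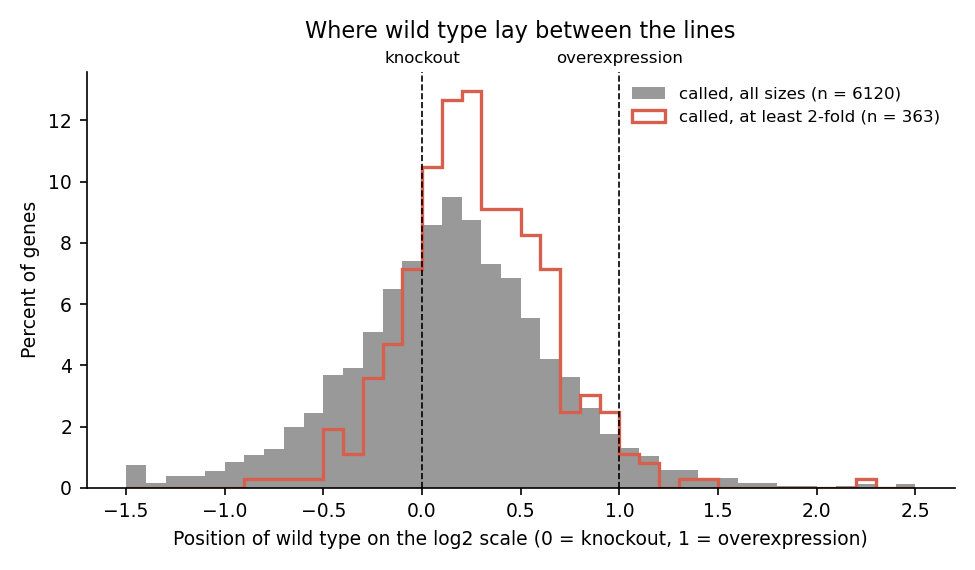
Histogram of the place of wild type on a log2 scale where knockout is 0 and overexpression is 1 (dashed lines), as percent of called genes, for all 6120 (grey) and the 363 with at least 2-fold difference (red line); values beyond the axis are put in the end bins. Both distributions peak between 0 and 0.5, nearer the knockout.

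Whether wild type stood off the midpoint of the lines was tested directly, with a contrast that in a balanced design is orthogonal to the difference between the lines. Of the 6120 called genes, 2237 (36.6%) had wild type off the midpoint, beside 18.7% of all tested genes. Both contrasts gave more calls in genes with many reads: wild type was off the midpoint in 5% of the group with the fewest reads and in 39% of the group with the most. In 2039 of these 2237 genes (91.1%) wild type was nearer the knockout, and in 198 nearer overexpression. Among the 2055 genes off the midpoint but not called between the lines, it was nearer the knockout in 1421 (69.1%). Among genes with a 2-fold difference it was nearer the knockout in 84 and nearer overexpression in 8. The number off the midpoint became 1447 when wild type replicate 1 was left out, 1436 when wild type replicate 2 was, and 1286 in DESeq2, and wild type was nearer the knockout in 89.5% to 93.2% of them over the alternatives that gave a value.

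The tests against wild type sorted the 6120 genes further. These tests share the wild-type libraries, and 29.2% of all tested genes differed between overexpression and wild type and 8.52% between knockout and wild type. Wild type differed from overexpression and not from knockout in 3566 genes (58.3%), 1901 higher and 1665 lower in overexpression. It differed from knockout and not from overexpression in 514 (8.40%), 285 higher and 229 lower in overexpression than in knockout. It differed from neither in 1514 (24.7%), whose lines differed by a median of 1.25-fold, and 143 of the 363 genes with a 2-fold difference were of this kind. A missed threshold does not show that wild type equalled a line.

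Few genes passed the tests against both lines with wild type between them. The mean of wild type lay between the lines in 3593 of the 6120 called genes. A missed threshold does not show that a step was absent. Wild type differed from both lines and lay between them in 193 genes (3.15%), 115 higher and 78 lower in overexpression than in knockout, with a median difference of 1.41-fold between the lines. Leaving out wild type replicate 1 gave 72 such genes, leaving out wild type replicate 2 gave 98, and leaving out knockout replicate 1 gave 124. DESeq2 gave 98. The clearest rise was Zm00001d012266, with 77 and 78 reads in overexpression, 1 and 4 in knockout and 17 and 14 in wild type. Its genotypes did not overlap. It rose more than Zm00001d032902, but its average log2 CPM of 0.571 was under the limit of 1 set for the largest rises. The log2 fold change between the lines was 4.94 (SE 0.55, adjusted p = 6.04e-09, edgeR) and wild type stood near the middle, at 0.523 on the scale of knockout to overexpression. With 5 reads in both knockout libraries together, the size of its difference is uncertain, and it ran from 4.24 to 6.21 over the alternatives. The clearest fall was Zm00001d039566, described above, with wild type at 0.367.

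Both lines also lay on the same side of wild type in genes that differed between them. Wild type differed from both and lay beyond the knockout in 293 genes (4.79% of those called), 160 higher and 133 lower in overexpression than in knockout. Both tests use the same wild-type libraries, so error in the wild-type mean moves both lines to the same side of it and favours such genes. The 160 include zma-MIR528a. The median difference between the lines in these genes was 1.16-fold. Wild type differed from both and lay beyond overexpression in 40 genes (0.654%), 32 of them higher and 8 lower in overexpression than in knockout.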

How the data were processed

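RNA was extracted from young ears with a plant kit, treated with DNase and, per the labels' protocols, made into libraries with a NEBNext Ultra II kit. The authors deposited raw read counts per gene, not normalized. Tools named in the submitters' processing notes are HISAT2 2.1.0, Trimmomatic 0.35, StringTie, HTSeq and edgeR 3.32.1, with no order. The build, annotation and options of the counting are not given in these sources. As no use of strand is stated, overlapping and antisense genes cannot be separated; counts of near-identical copies are uncertain too. There were 0 unused columns.

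The low-count filter was filterByExpr (minimum count 10); genes kept held 99.94% of reads in each library. After TMM scaling (factors 0.991 to 1.01), 1 quasi-likelihood fit of edgeR 4.0.16 (R 4.3.3) held all 6 libraries and 3 group means, leaving 3 residual degrees of freedom. The prior had 33.2 degrees of freedom, so all genes together weighed most in a gene's spread. The standard error is the log2 fold change divided by the square root of F. P-values were adjusted over all tested genes (Benjamini-Hochberg). Log2 CPM for the SD between libraries used a prior count of 2. Genes with 0 reads in a group have fitted fold changes that depend on the prior count.

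Genes to name were to be members of 19 lists given by symbol, tested microRNA genes, and the genes with the largest rise, fall or step from wild type. Of 154 microRNA names, 153 matched the RefSeq table of assembly Zm-B73-REFERENCE-NAM-5.0; 0 other identifiers did, so 0 lists could be used and few Zm00001d identifiers are printed. The microRNA families summed, ENSRNA049478207 and the other genes at 0 in a line were chosen after the values were seen. The comparison, members and lists were chosen with earlier results of these data known. Alternatives were RLE size factors, other low-count filters, DESeq2 1.42.0, limma-voom (limma 3.58.1), robust dispersions, only the 4 libraries of the lines, a 2-fold minimum, leaving out each library, and a block for the replicate number. Where a library was left out, the lone replicate of its group is assumed to vary as the other groups do. No batch or date is in the labels.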

Additional observations from a re-analysis of the deposited data

How the results depend on the processing

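Calls between overexpression and knockout (6120) stayed within 1.5 times of that count with RLE size factors, other filters, limma-voom, robust dispersions, only the 4 libraries of the lines, and each library left out (4404 to 6011). All 3946 DESeq2 calls were among the 6120, in the same direction. DESeq2 gave wild type between the lines in 2378 of its genes, 98 genes with wild type between and different from both, 1286 off the midpoint, 4455 calls of overexpression against wild type and 986 of knockout against wild type. The cause was not tested. A 2-fold minimum only removes genes. It left 363 calls, 282 of them with wild type between and 92 off the midpoint. Of the 363, 21 had wild type between and different from both lines. In 1 of them, both steps from wild type also reached 2-fold. Calls against wild type of at least 2-fold were 350 for overexpression and 58 for knockout. With 1 library left out, fewer libraries were tested, and the ranges were 2672 to 3371 genes with wild type between (3593 with all), 72 to 167 different from both (193), 1436 to 1746 off the midpoint (2237), 4820 to 6759 called between overexpression and wild type (6698) and 893 to 2072 between knockout and wild type (1954).

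Over all tested genes, differences between replicates correlated at 0.00772 between overexpression and knockout. The correlation was -0.0139 between overexpression and wild type and -0.00862 between knockout and wild type. Counting error in genes with few reads weakens such correlations, so they cannot show whether replicate numbers pair the libraries. With the replicate number as a block there were 5850 calls between the lines, 3448 with wild type between, 172 different from both and 2095 off the midpoint, and 6465 and 1743 calls of overexpression and of knockout against wild type.

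With 1 library left out, the log2 fold change of 6 uncalled microRNA genes changed sign in at least 1 case. Over all alternatives it ran from -0.168 to 0.417 for zma-MIR159a, -0.891 to 0.396 for zma-MIR160b, -0.616 to 0.566 for zma-MIR160d, -0.0384 to 0.197 for zma-MIR166a, -0.211 to 0.305 for zma-MIR168a and -0.489 to 0.277 for zma-MIR2118c. For ENSRNA049478207, a call, the range was -3.95 to 0.806. Between the lines, zma-MIR408b passed only in the fit of the 4 libraries of the lines (adjusted p = 0.0474, edgeR). No alternative was run for RHW1, ZCN4 or the lists, which were not analysed here. No difference was detected in these 6 microRNA genes, and at their read counts this does not show that the lines were equal.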

Other observations

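One call between the lines rested on a single library. The non-coding gene ENSRNA049478207 had 27 and 25 reads in overexpression, 16 and 404 in knockout and 13 and 24 in wild type. The lines overlapped, and knockout replicate 2 alone stood high. The log2 fold change of -2.99 passed the test (adjusted p = 0.000165, edgeR) and became 0.81 without knockout replicate 2 (adjusted p = 0.392, edgeR). It did not pass in DESeq2 (adjusted p = 0.16), limma-voom (adjusted p = 0.234) or edgeR with robust dispersions (adjusted p = 0.356). Over the 14 alternatives its log2 fold change ran from -3.95 to 0.81.

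Replicates of a line stood at least 2-fold apart, with at least 20 reads in the higher one, in 21 of the 363 genes with a 2-fold difference for overexpression and in 26 for knockout. Among all 22947 tested genes the numbers were 326 for overexpression and 362 for knockout.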
